A study of Mus musculus with 56 samples.

Results

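Fibrinogen and the enzymes that dissolve its clots are largely made by the liver, and the mRNA of 9 genes of this system was followed in the livers of 56 female APOE*3Leiden.CETP mice. The genes were chosen by their function: the fibrinogen chains Fga, Fgb and Fgg, the factor XIII B subunit F13b, plasminogen (Plg), its activators Plau and Plat, and the inhibitors Serpinf2 and Cpb2. They are 9 of the 45513 genes counted in each liver, and all 9 had enough reads to be among the 14314 genes tested. APOE*3Leiden.CETP mice carry human transgenes that give them a human-like lipoprotein metabolism, and all mice, controls included, were fed a Western-type diet with 15% cacao butter and 0.15% cholesterol. They were 9 to 14 weeks old at the start, and the drugs were given for 16 weeks after a run-in of 3 weeks on the diet. Control mice were gavaged with the vehicle, carboxymethyl cellulose, and all mice but those given imatinib had an additional gavage of vehicle. The drugs inhibit the BCR-ABL tyrosine kinase and are used in chronic myeloid leukaemia. Nilotinib was given once daily at 10 or 30 mg/kg, ponatinib once daily at 3 or 10 mg/kg, and imatinib 2 times daily at 150 mg/kg. A seventh group received the vehicle by gavage and L-NAME, an inhibitor of nitric oxide synthase, at 0.12 to 0.20% in the drinking water, for a time that the sources used here do not give. Each group held 8 mice, and all groups were compared with the same 8 controls.

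Fibrinogen is a hexamer of paired alpha, beta and gamma chains, encoded by Fga, Fgb and Fgg. Thrombin turns it into fibrin, and factor XIII, whose A subunit is the enzyme and whose B subunit (F13b) carries it in plasma, cross-links the fibrin strands. Plasminogen, made by hepatocytes, is converted to plasmin by urokinase (Plau) or tissue plasminogen activator (Plat), which come mainly from cells other than hepatocytes. Plasmin cuts fibrin. Alpha-2-antiplasmin (Serpinf2) blocks plasmin directly, and the carboxypeptidase TAFI (Cpb2) removes the lysine residues on fibrin to which plasminogen binds. Fibrinogen is also a classical acute-phase protein: interleukin-6, through STAT3, raises the transcription of its genes in hepatocytes.

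On GRCm38, Fgg (chr3:83007724-83015049, plus strand), Fga (chr3:83026076-83033627, plus strand) and Fgb (chr3:83040141-83049863, minus strand) lay side by side. The other members were scattered, with F13b at chr1:139501702-139523752, Plg at chr17:12378608-12419385, Plau at chr14:20836660-20843385, Plat at chr8:22757727-22782844, Serpinf2 at chr11:75431732-75439591 (minus strand) and Cpb2 at chr14:75242287-75283555. Since mRNA of the 3 fibrinogen chains varied together between mice, as described below, their promoters are shown. RefSeq promoter windows of the build GRCm38.p6, from 250 bases before to 50 bases after the transcription start, were found for 6 of the 9 members. Positions below count from the RefSeq start, which for Fga lies inside the gene span given above. The windows of the 3 chains read 5′ to 3′ on the strand of the gene, with matched motifs in capitals.

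Fga, chr3:83025903-83026202, plus strand: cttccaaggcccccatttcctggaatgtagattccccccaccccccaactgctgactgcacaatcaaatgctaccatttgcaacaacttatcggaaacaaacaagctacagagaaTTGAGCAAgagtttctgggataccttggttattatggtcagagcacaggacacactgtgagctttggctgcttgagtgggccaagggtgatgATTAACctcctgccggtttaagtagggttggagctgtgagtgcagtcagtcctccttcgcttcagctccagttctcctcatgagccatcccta

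Fgb, chr3:83049814-83050113, minus strand: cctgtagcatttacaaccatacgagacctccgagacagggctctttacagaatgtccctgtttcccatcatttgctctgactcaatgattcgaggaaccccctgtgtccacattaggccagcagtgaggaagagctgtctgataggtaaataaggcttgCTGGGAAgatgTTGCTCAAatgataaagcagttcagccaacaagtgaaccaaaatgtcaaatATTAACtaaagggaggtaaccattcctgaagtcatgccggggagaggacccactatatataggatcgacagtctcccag

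Fgg, chr3:83007474-83007773, plus strand: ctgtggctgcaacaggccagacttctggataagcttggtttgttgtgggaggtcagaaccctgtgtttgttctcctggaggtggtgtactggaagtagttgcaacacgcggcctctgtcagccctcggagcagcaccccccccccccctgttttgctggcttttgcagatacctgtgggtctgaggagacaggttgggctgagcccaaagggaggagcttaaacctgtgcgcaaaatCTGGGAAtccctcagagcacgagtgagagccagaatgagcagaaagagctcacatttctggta

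Both strands were searched for 4 short motifs: CTGGGAA, the core of the interleukin-6 response element, GTTAAT, a core of the site of the hepatocyte factor HNF1, TTNNGCAA, a C/EBP-type site, and TATAAA, the TATA box. The interleukin-6 element was found in Fgb, with its first base 91 bases before the start, and in Fgg, 13 bases before it. The HNF1 core occurred on the reverse strand in Fga (43 bases before the start), Fgb (29 bases before) and also F13b (51 bases before). The C/EBP-type site was matched in Fga, 135 bases before the start, and on the reverse strand in Fgb, 80 bases before it, and also in Cpb2, 9 bases after the start. None of the capital stretches overlapped. The 6 windows held no TATA box. Of 32851 promoter windows of this length, 11.1% held the interleukin-6 element, 7.10% the HNF1 core, 10.8% the C/EBP-type site and 13.6% the TATA box, so single matches are frequent. A match of these letters is a description of the window and not evidence of a binding site.

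In 55 of the 56 livers the reads on genes numbered from 5342379 to 17996732, and 1 L-NAME liver (mouse 2) held 97473341. Levels are given as CPM, the reads of a gene scaled to a common library size (reads on the tested genes, with TMM factors), and comparisons between genes as CPM per kilobase of exon. The hepatocyte markers were high (Alb at 44041 to 118152 CPM), the pancreas genes Pnlip and Prss2 had no read in any of the 56 mice, and the fat genes Adipoq and Plin1 had none in 52 and 54. Of the same lists, the pancreas gene Cela2a had reads in 30 mice, at up to 4.50 CPM, and Car3, which fat expresses, was at 246 to 2588 CPM in all mice. The share of uniquely aligned reads that lay outside annotated genes differed between groups, from 7.97% ± 0.42 in controls and 8.53% ± 0.61 with ponatinib 3 mg/kg to 11.0% ± 1.99 with ponatinib 10 mg/kg and 11.0% ± 2.44 with L-NAME (SD, n = 8 each). It was 9.75% ± 0.69 and 10.5% ± 1.39 with the 2 doses of nilotinib and 10.0% ± 1.82 with imatinib. Because this share moved with treatment and with several members, it is set beside the results it touches.

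Per kilobase of exon, the 9 members spanned the whole range of expression in the liver. Fgg, Fga and Fgb stood at ranks 25, 30 and 39 of the 14314 tested genes, with mean levels over all mice of 1798, 1479 and 1226 CPM per kilobase. Plg followed at rank 68 (650 CPM per kilobase), Serpinf2 at rank 134 (338) and Cpb2 at rank 265 (185). F13b was lower, at rank 654 (75.7 CPM per kilobase). The activators were far below these, Plau at rank 7192 with 3.43 CPM per kilobase and Plat at rank 13109 with 0.324. In read numbers this meant a median of 43005 reads of Fga and 22072 of Plg in a control mouse against 117 of Plau and 32 of Plat. The mRNA of the activators was thus measured much less precisely than that of plasminogen, on which they act.

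**Figure D1:**
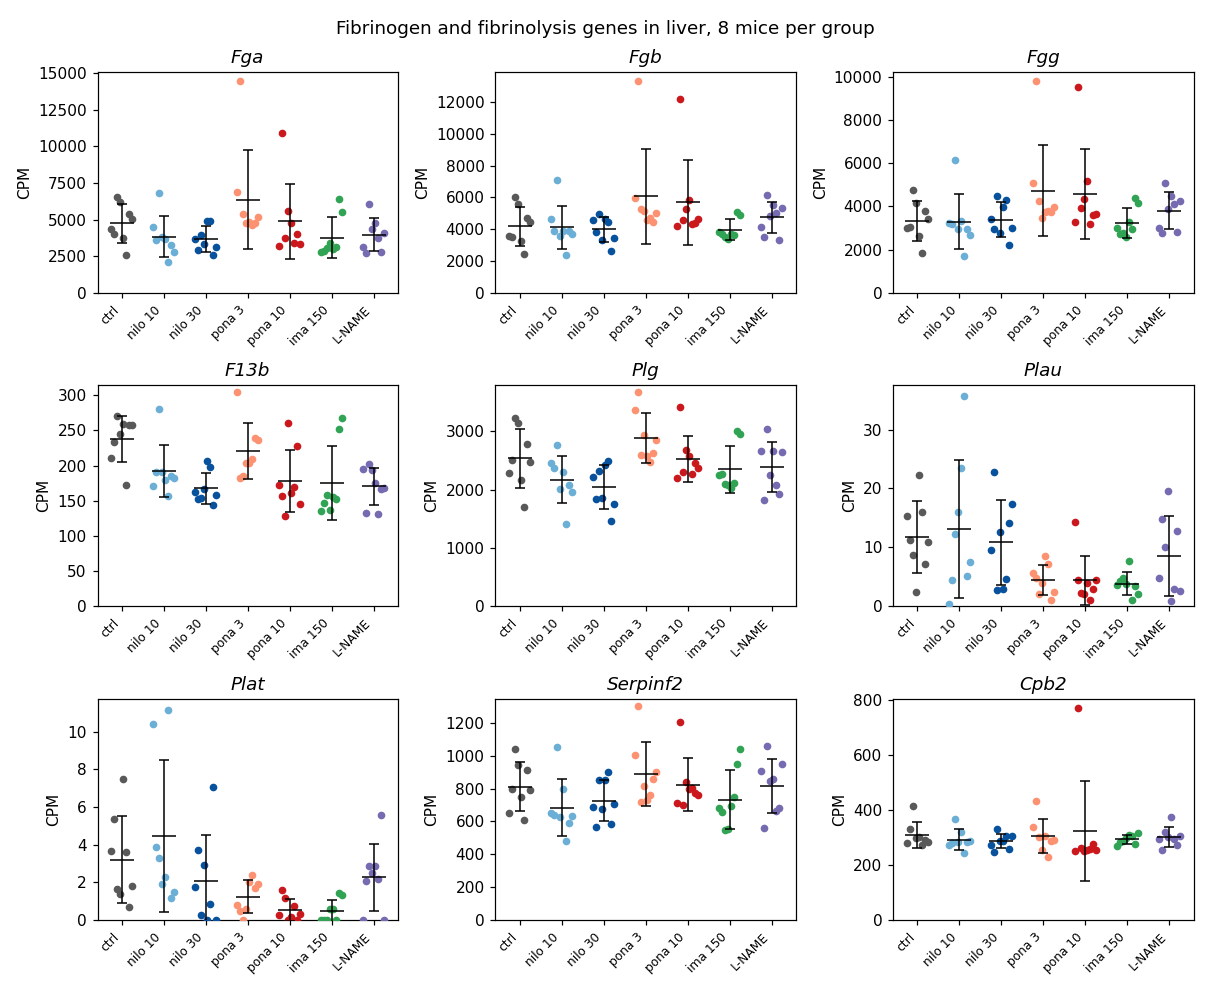
CPM of each of the 9 genes (y axes, linear, from 0) in each mouse (points) of the 7 groups (x axes, 8 mice each), with bars for the mean ± SD. F13b is lower in 4 treated groups, Plau and Plat are low with ponatinib and imatinib, and 1 mouse in each ponatinib group stands far above the others in the fibrinogen chains.

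The fibrinogen chains did not pass the test in any treated group, at an adjusted p below 0.05 from edgeR's quasi-likelihood test with Benjamini-Hochberg adjustment over all 14314 genes. Fgb, the beta chain, ranged in control mice from 2413 to 6014 CPM, with a median of 4000. With ponatinib 3 mg/kg it ranged from 4472 to 13344 CPM (median 5086) and with ponatinib 10 mg/kg from 4167 to 12158 (median 4615). In both ponatinib groups the lowest mouse was above the control median, yet all but 1 mouse of each lay within the control range. The log2 fold change of Fgb was 0.53 ± 0.20 (SE; adjusted p = 0.32) with ponatinib 3 mg/kg and 0.44 ± 0.20 (adjusted p = 0.14) with 10 mg/kg. Fgg, the gamma chain, gave 0.51 ± 0.21 (adjusted p = 0.36) and 0.46 ± 0.21 (adjusted p = 0.14). Fga, the alpha chain, gave 0.43 ± 0.23 (adjusted p = 0.54) with ponatinib 3 mg/kg and 0.04 ± 0.23 (adjusted p = 0.94) with 10 mg/kg. With nilotinib, imatinib and L-NAME the differences of Fgb and Fgg lay between −0.08 and 0.19, with 95% intervals that reached from −0.47 to 0.59, and those of Fga between −0.37 and −0.26.

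Much of the spread in the ponatinib groups came from 1 mouse in each. Ponatinib 3 mg/kg mouse 2 had 14475 CPM of Fga and the next mouse of its group 6895. Ponatinib 10 mg/kg mouse 2 had 10916, and the next 5606. These were the highest 2 of all 56 mice in Fga, and they were also the highest 2 in the summed level of 16 acute-phase genes, at 43834 and 87745 CPM, against 26091 in the third. Saa1, serum amyloid A, reached 1591 and 11884 CPM in the highest mouse of the 2 ponatinib groups, where the next mice had 84.8 and 111, and controls 59.4 to 208. With all mice, 6 of the 16 acute-phase genes were called higher with ponatinib 10 mg/kg and 0 lower (Saa1 by 3.77 log2 units, adjusted p = 0.0024), where 13.1% of all tested genes were called. Without the 2 mice, 0 were higher and 5 were lower, with Saa1 at −1.17 (adjusted p = 0.021). The 5 were Cp, Lcn2, Saa1, Saa3 and Saa4, in a fit that called 13.7% of all genes. The same fit called 6 of the 16 lower with imatinib (10.4% of genes) and 7 higher and 1 lower with L-NAME (12% of genes), where 0 were called with all mice. With all mice and the share of reads outside genes as a covariate, 5 were higher with ponatinib 10 mg/kg (2.58% of genes). For the chains, leaving out the 2 mice put Fga with ponatinib 10 mg/kg at −0.24 log2 units, where it was 0.04 with all mice. The other fold changes of the chains with ponatinib against control stayed positive. Leaving out these mice was chosen after their values were seen.

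**Figure D2:**
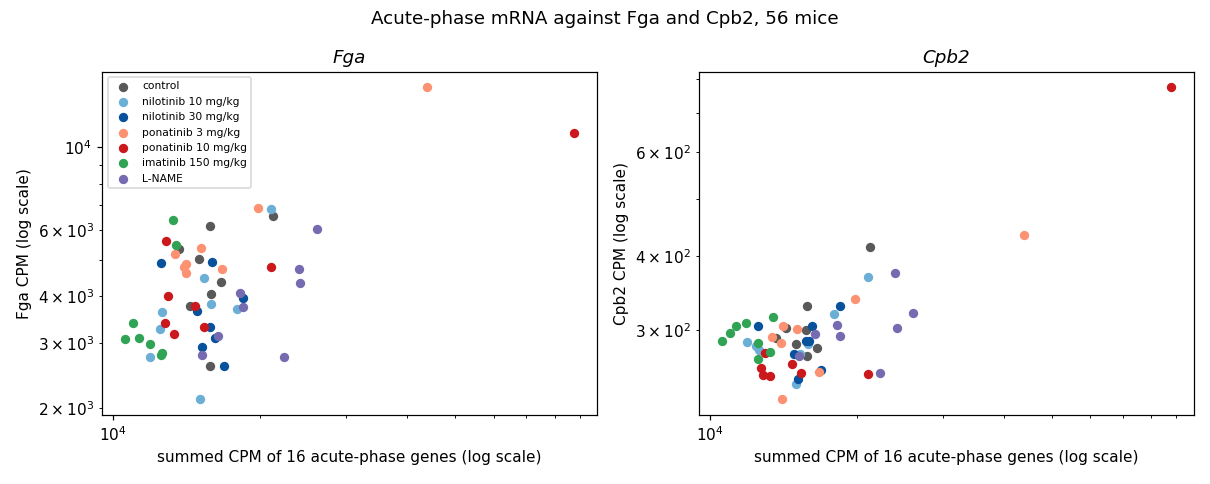
Summed CPM of 16 acute-phase genes (x axes, log scale) against CPM of Fga (left) and Cpb2 (right, y axes, log scale), 1 point per mouse, coloured by group. The ponatinib 3 and 10 mg/kg mice at 43834 and 87745 summed CPM stand apart on both axes in the left panel, and Cpb2 is highest in the second of them.

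The mean ratio of Fgg to Fgb moved less from control than the ratios of Fga to either chain. The ratio of Fgg to Fgb, per kilobase, was 1.46 ± 0.08 in control mice (SD, n = 8) and between 1.43 and 1.55 as a mean in the other groups. With nilotinib 10 mg/kg 3 mice lay below every control and 1 above, and with nilotinib 30 mg/kg 3 lay above. With ponatinib 3 mg/kg 2 lay below, and with imatinib 1 below and 1 above. There was 1 above with ponatinib 10 mg/kg and 1 below with L-NAME. The ratio of Fga to Fgb was 1.44 ± 0.06 in control mice, which ranged only from 1.36 to 1.56. It was 1.17 ± 0.12 with nilotinib 10 mg/kg, 1.17 ± 0.17 with nilotinib 30 mg/kg and 1.17 ± 0.23 with imatinib. Ponatinib 3 mg/kg gave 1.32 ± 0.09, ponatinib 10 mg/kg 1.07 ± 0.14 and L-NAME 1.05 ± 0.11. All 8 mice given nilotinib 10 mg/kg, ponatinib 10 mg/kg or L-NAME were below every control mouse, as were 7 given nilotinib 30 mg/kg and 6 each given ponatinib 3 mg/kg or imatinib. The ratio of Fga to Fgg ran from 0.988 ± 0.037 in controls to 0.717 ± 0.063 with L-NAME. In most mice of each treated group, Fga thus lay below the control range when set against Fgb or Fgg. No test was made of the ratios, and how often ratios of other gene pairs separate from these controls was not counted.

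Groups with a lower Fga to Fgb ratio also had a larger share of reads outside genes. Within groups, with group means removed, the log2 ratio and that share gave Pearson's r = −0.193 (permutation p = 0.23) and Spearman's rho = −0.299 (permutation p = 0.042) over 56 mice, and r = −0.201 once the 2 mice with the most distant shares were left out. In the imatinib group, mice 7 and 8 had ratios of 1.59 and 1.43, at the level of controls, and the lowest shares outside genes of their group, 8.44% and 8.16%. The other 6 imatinib mice had ratios of 0.928 to 1.26 and shares of 9.33% to 14.1%. The part of the read share in the ratio was not tested.

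**Figure D3:**
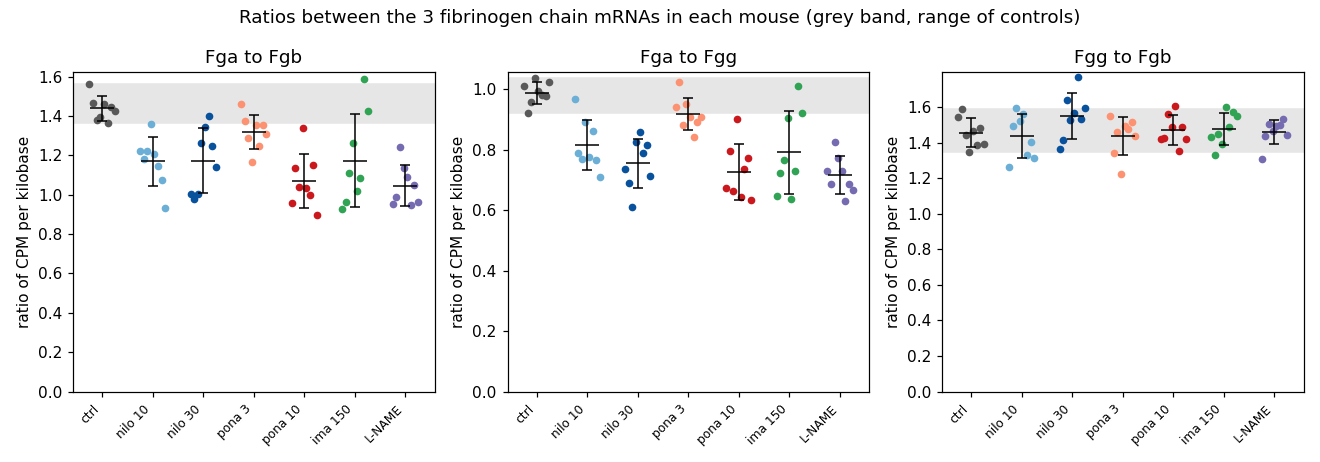
Ratios of Fga to Fgb, Fga to Fgg and Fgg to Fgb (y axes, ratio of CPM per kilobase, linear from 0) in each mouse (points) by group, with the mean ± SD and a grey band for the control range. The first 2 ratios lie below the band in most treated mice, while Fgg to Fgb lies in it in most.

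F13b was the member lowered in most groups. It fell with imatinib, nilotinib 30 mg/kg, ponatinib 10 mg/kg and L-NAME, to between 0.703 and 0.746 of the control level. Control mice ranged from 172 to 271 CPM with a median of 251. With nilotinib 30 mg/kg the mice lay between 144 and 206 CPM (median 161), and with L-NAME between 131 and 202 (median 171). With ponatinib 10 mg/kg the range was 128 to 261 CPM (median 165), and with imatinib 135 to 268 (median 154). No treated group was fully separated from the controls, but 6 of 8 mice given nilotinib 30 mg/kg, 6 given imatinib, 5 given ponatinib 10 mg/kg and 4 given L-NAME were below every control. The log2 fold changes were −0.51 ± 0.14 (SE; adjusted p = 0.016) with nilotinib 30 mg/kg, −0.49 ± 0.14 (adjusted p = 0.013) with L-NAME, −0.44 ± 0.14 (adjusted p = 0.029) with imatinib and −0.42 ± 0.14 (adjusted p = 0.031) with ponatinib 10 mg/kg. With the lower doses the value was −0.31 ± 0.14 for nilotinib 10 mg/kg (adjusted p = 0.27) and −0.11 ± 0.14 for ponatinib 3 mg/kg (adjusted p = 0.86). Neither dose comparison passed the test for F13b (ponatinib 10 against 3 mg/kg, −0.31, 95% interval −0.58 to −0.04, adjusted p = 0.28).

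F13b also moved with the share of reads outside genes within groups (Pearson's r = −0.428, permutation p = 0.0037, adjusted 0.016 over the 9 members, Spearman's rho = −0.291, permutation p = 0.036, r = −0.336 without the 2 farthest mice). It was not alone: Serpinf2 gave r = −0.441 (adjusted permutation p = 0.0078). Fga (−0.347), Plg (−0.340), Fgb (−0.323) and Fgg (−0.309) passed at adjusted permutation p of 0.021 to 0.026, and Cpb2 did not (−0.271, 0.14). With the share of reads outside genes as a covariate, F13b was called in no group, with log2 fold changes of −0.30 (imatinib, nilotinib 30 mg/kg), −0.25 (L-NAME) and −0.19 (ponatinib 10 mg/kg) and adjusted p of 0.22 to 0.57. That fit called 4.56% of all genes with imatinib, 0.671% with nilotinib 30 mg/kg, 1.8% with L-NAME and 2.58% with ponatinib 10 mg/kg. The imatinib group again split as above: mice 7 and 8 had 252 and 268 CPM, like controls, and the other 6 lay between 135 and 158. The call with imatinib was lost when any 1 of imatinib mice 1 to 6 was left out (adjusted p up to 0.075), and that with ponatinib 10 mg/kg in 9 of 16 such fits (up to 0.079, and 0.0501 without the 2 high-Fga mice). With nilotinib 30 mg/kg and L-NAME the call was kept in 16 of 16. In bulk liver, fewer cells of a type and less RNA per cell cannot be told apart.

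Plasminogen itself, with 1701 to 3227 CPM in control mice (median 2489), was not called in any comparison. The largest difference was with nilotinib 30 mg/kg, where the mice ranged from 1453 to 2484 CPM (median 2040) and the log2 fold change was −0.31 ± 0.13 (SE; adjusted p = 0.15). With ponatinib 10 mg/kg the 95% interval of the difference was −0.25 to 0.25.

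The plasminogen activators Plau and Plat were lowest with imatinib and ponatinib. Plau was 11.7 ± 6.13 CPM in control mice (SD, n = 8), ranging from 2.33 to 22.3 with a median of 11.1. With imatinib it ranged from 1.00 to 7.74 CPM (median 3.69), with ponatinib 10 mg/kg from 0.998 to 14.2 (median 3.35) and with ponatinib 3 mg/kg from 1.12 to 8.50 (median 4.30). All these ranges overlapped that of the controls, whose lowest mouse was at 2.33. Plau fell with imatinib (log2 fold change −1.62 ± 0.53, SE, adjusted p = 0.039). Ponatinib 10 mg/kg gave −1.43 ± 0.53 (adjusted p = 0.061) and ponatinib 3 mg/kg −1.41 ± 0.53 (adjusted p = 0.32), a difference of −0.02 between doses with a 95% interval of −1.07 to 1.02. With nilotinib 10 mg/kg Plau was 0.16 ± 0.51 and with 30 mg/kg −0.12 ± 0.51 relative to controls, and the largest single values of all, 35.7 and 23.4 CPM, were in the nilotinib 10 mg/kg group.

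Plat, tissue plasminogen activator, was close to the limit of detection. Control mice had 5 to 70 reads (median 32), or 0.652 to 7.48 CPM. With imatinib 4 of 8 mice had no read and the highest had 13, and with ponatinib 10 mg/kg 2 had none and the highest had 17. Plat fell with imatinib (log2 fold change −2.68 ± 0.89, SE, adjusted p = 0.042) and with ponatinib 10 mg/kg (−2.55 ± 0.88, adjusted p = 0.043). It was −1.37 ± 0.84 with ponatinib 3 mg/kg, −0.63 ± 0.82 with nilotinib 30 mg/kg, −0.50 ± 0.82 with L-NAME and 0.47 ± 0.81 with nilotinib 10 mg/kg, none of which passed. In the direct comparison of ponatinib and nilotinib at the same 10 mg/kg, once daily, Plat gave −3.02 ± 0.89 (SE; adjusted p = 0.054) and Plau −1.59 ± 0.53 (adjusted p = 0.093).

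The calls of the activators depended on single mice. Those of Plau with imatinib and of Plat with imatinib and with ponatinib 10 mg/kg were each lost when any of 10 of the 16 mice compared was left out, with adjusted p up to 0.092, 0.093 and 0.098. Plau with ponatinib 10 mg/kg was called without ponatinib mouse 1, which had 14.2 CPM where the next had 4.38, or without control mouse 4 (adjusted p down to 0.012). Within groups, Plau and Plat gave r = 0.061 and 0.054 with the share of reads outside genes. With that share as a covariate all 3 calls were lost, at log2 fold changes of −1.70 for Plau with imatinib (adjusted p = 0.071), −2.63 for Plat with imatinib (0.086) and −2.44 for Plat with ponatinib 10 mg/kg (0.19), in a fit that called 4.56% of all genes with imatinib and 2.58% with ponatinib 10 mg/kg. The method also mattered: limma voom did not call Plau with imatinib (adjusted p = 0.073), while Plau with ponatinib 10 mg/kg was called by limma voom with quality weights (0.041) and by edgeR on these 2 groups alone (0.039). Without the filter on low counts, Plat was called with neither drug (0.055 for both).

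Markers of other liver cells moved with imatinib and ponatinib 10 mg/kg, and some of them in other groups as well. With imatinib, where 10.3% of all genes were called, 4 of 8 macrophage markers were lower (Adgre1, Cd5l, Cd68 and Csf1r) and their summed level was 421 to 883 CPM against 749 to 1520 in controls. With ponatinib 10 mg/kg, where 13.1% of all genes were called, 2 were higher (Clec4f, Marco) and 1 lower (Cd68), with sums of 393 to 2201 CPM. Of the 10 stellate cell and fibroblast markers, Col1a1 and Col3a1 fell with both drugs and Ecm1 rose, with sums of 565 to 836 CPM for imatinib, 230 to 896 for ponatinib 10 mg/kg and 601 to 1266 for controls. By edgeR with all mice, none of the 11 endothelial markers was called in any group. At an unadjusted p below 0.05, 2 passed with imatinib (23.5% of all genes), 2 with ponatinib 10 mg/kg (25.8%) and 4 with ponatinib 3 mg/kg (9.96%). Limma voom with quality weights called 2 with imatinib (Cdh5 and Vwf), 1 with ponatinib 10 mg/kg (Kdr) and 2 with ponatinib 3 mg/kg (Kdr and Tek) at an adjusted p below 0.05. The same method called 1 with nilotinib 30 mg/kg (Clec4g, also called by DESeq2) and 1 with L-NAME (Vwf). The share of all genes called by these methods was not counted. The sums of the endothelial markers were 227 to 721 CPM in controls, 358 to 621 with imatinib and 157 to 507 with ponatinib 10 mg/kg. Once the share of reads outside genes was a covariate, 4.56% of all genes were called with imatinib and 2.58% with ponatinib 10 mg/kg. Cd5l was then the macrophage marker still called with imatinib and none was with ponatinib 10 mg/kg. Col1a1 and Col3a1 stayed called with both while Ecm1 did not. Without the 2 high-Fga mice, Marco was no longer called with ponatinib 10 mg/kg. In that fit Ecm1 and Clec4f were also higher with nilotinib 30 mg/kg (5.86% of genes called) and L-NAME (12%). Of the hepatocyte markers, Ttr rose and Cps1 fell in those groups, with imatinib (10.4%) and with ponatinib 10 mg/kg (13.7%). Asgr1 rose in the same groups except nilotinib 30 mg/kg, and Apob fell in the same groups except imatinib. Cps1 also fell with nilotinib 10 mg/kg (1.57%). In the same fit the endothelial marker Clec4g rose with imatinib and with nilotinib 30 mg/kg. With all mice and the covariate, Asgr1 was higher with imatinib, ponatinib 10 mg/kg and L-NAME (1.8% of genes), and Cps1 was lower with imatinib. No other hepatocyte marker was called in that fit. The part of these cells in the levels of Plau and Plat was not tested.

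The inhibitors of fibrinolysis did not pass the test. Serpinf2, alpha-2-antiplasmin, ranged from 608 to 1043 CPM in controls (median 798), and its log2 fold changes lay between −0.25 and 0.13. Cpb2, TAFI, ranged from 271 to 415 CPM in controls (median 295), with log2 fold changes between −0.11 and 0.06. With ponatinib 10 mg/kg, however, 7 of the 8 mice lay between 251 and 274 CPM, 6 of them below every control, and mouse 2, the one with the acute-phase pattern, at 773. With all 8, the difference from controls was 0.06 ± 0.14 (SE, adjusted p = 0.85). Without the 2 mice with the acute-phase pattern, Cpb2 was lower with ponatinib 10 mg/kg, by −0.26 log2 units (adjusted p = 0.045). These mice were left out for their high values, while no control was, although control mouse 3 stood apart at 415 CPM. That adjusted p therefore cannot serve as a test of ponatinib. Both the sign and the call of Cpb2 thus changed with these livers.

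**Figure D4:**
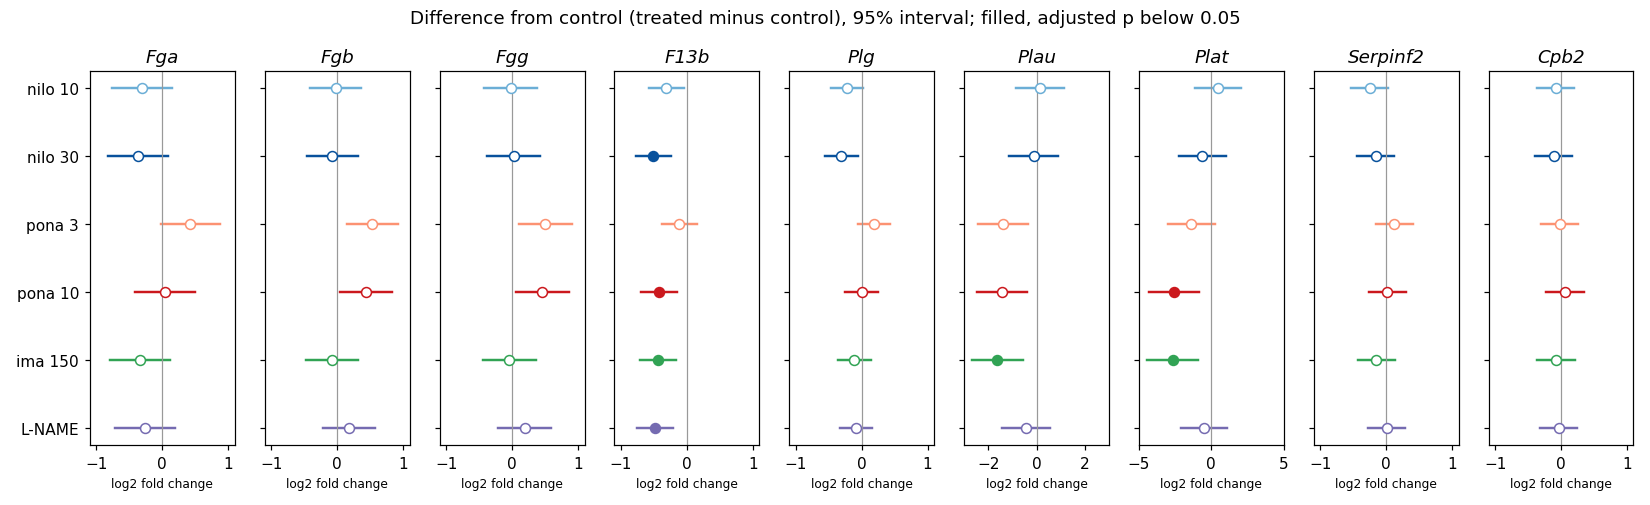
Log2 fold change against control (x axes, scale differs for Plau and Plat) of the 9 genes for 6 treated groups (rows), with 95% intervals, and filled symbols for an adjusted p below 0.05. F13b is filled in 4 groups, Plat in 2 (imatinib and ponatinib 10 mg/kg) and Plau in 1 (imatinib).

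Counted over all 9 members, 3 were called with imatinib (F13b, Plau and Plat, all lower), where 10.3% of tested genes were called and 4.58% were lower. With ponatinib 10 mg/kg 2 were called (F13b and Plat, both lower), against 13.1% of genes called and 5.87% lower. F13b alone was called with nilotinib 30 mg/kg (5.77% of genes called, 3.43% lower) and with L-NAME (11.8%, 6.24% lower). By edgeR none was called with nilotinib 10 mg/kg (1.41% of genes, 0.943% lower) or ponatinib 3 mg/kg (0.0419%, all lower). At an unadjusted p below 0.05, F13b passed with nilotinib 10 mg/kg (14.2% of genes) and 3 members (Fgb, Fgg and Plau) with ponatinib 3 mg/kg (9.96%, or 2 members and 3.14% of genes at an unadjusted p below 0.01), and limma voom with quality weights called 1 and 0. DESeq2 called 0 in both, over 7 of the 9 members, since it gave no adjusted p for Plau and Plat there. The same rule gave 3 members with imatinib (23.5% of genes), 2 with nilotinib 30 mg/kg (18.7%), 5 with ponatinib 10 mg/kg (25.8%) and 1 with L-NAME (24.2%). In no comparison with control did a member's groups separate without overlap, which held for 0.105% of tested genes with ponatinib 3 mg/kg, 0.65% with nilotinib 10 mg/kg, 0.957% for ponatinib 10 mg/kg, 1.14% for imatinib, 1.73% for nilotinib 30 mg/kg and 2.57% for L-NAME. The median log2 fold change of the 9 members was −0.15 with imatinib, −0.08 and −0.16 with nilotinib 10 and 30 mg/kg, 0.13 and 0.02 with ponatinib 3 and 10 mg/kg, and −0.09 with L-NAME, and that of all tested genes lay between −0.02 and 0.03.

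Direct comparisons between treated groups called no member by edgeR. The share of all tested genes called was 0% for nilotinib 30 against 10 mg/kg, 1.39% for ponatinib 10 against 3 mg/kg, 2.06% for ponatinib against nilotinib at 10 mg/kg, 1.88% for ponatinib 10 against nilotinib 30 mg/kg, 1.08% for ponatinib 10 mg/kg against imatinib and 3.59% for imatinib against nilotinib 30 mg/kg. At an unadjusted p below 0.05, in the same order, 0 members passed (5.67% of genes), then 1 (F13b, 14.4%), 4 (15.3%), 5 (13.6%), 2 (10.7%) and 2 (15.9%). At an unadjusted p below 0.01, 2 passed for ponatinib against nilotinib at 10 mg/kg (6.73% of genes) and 1 for imatinib against nilotinib 30 mg/kg (7.55%). DESeq2 called 1 of these (Plat, ponatinib against nilotinib at 10 mg/kg, adjusted p = 0.0092), and limma voom with quality weights called F13b for ponatinib 10 against 3 mg/kg (−0.46, adjusted p = 0.018). Fgb with ponatinib 10 mg/kg against nilotinib 10 mg/kg was 0.46 (95% interval 0.07 to 0.86, adjusted p = 0.23), and against imatinib, where the doses differ, 0.52 (0.13 to 0.91, adjusted p = 0.26).

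Between mice of one group, most members varied together. With the group means removed, 21 of 36 pairs of members were correlated in log2 CPM over 56 mice (permutation within groups, adjusted p below 0.05 by both Pearson's r and Spearman's rho, smallest p that 100000 permutations can give 1e-05). The closest were Fgb and Fgg (r = 0.973, rho = 0.943), Fga and Fgg (r = 0.948, rho = 0.917) and Fga and Fgb (r = 0.935, rho = 0.876), all with adjusted p of 2.25e-05 (permutation). They remained at r = 0.962, 0.925 and 0.903 without the 2 high-Fga mice. Plg and its inhibitor Serpinf2 gave r = 0.885 (rho = 0.854), and both were tied to the 3 chains (r = 0.827 to 0.872). All these pairs were positive in each of the 7 groups. Cpb2 and Fga gave r = 0.696, and r = 0.574 without the 2 mice. F13b was tied to Plg (r = 0.581) and Fga (r = 0.495, or 0.710 without the 2 mice).

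The activators did not share this pattern. Plau was negatively related to Plg (r = −0.420, adjusted permutation p = 0.0068, rho = −0.446, and r = −0.361 without the 2 mice farthest from the median). The r of Plau with Plg was positive in 2 of the 7 groups. Plau and Plat gave r = 0.216 (adjusted permutation p = 0.19, rho = 0.312). Plat and Plg gave r = −0.212 (adjusted permutation p = 0.19), and no pair with Plat passed by Pearson's r. The genes of a mouse share its library depth and normalisation, so all such correlations include common technical variation. With the share of reads outside genes regressed out, the 3 chains gave r = 0.927 to 0.970. The part of depth and normalisation in the correlations was not tested.

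**Figure D5:**
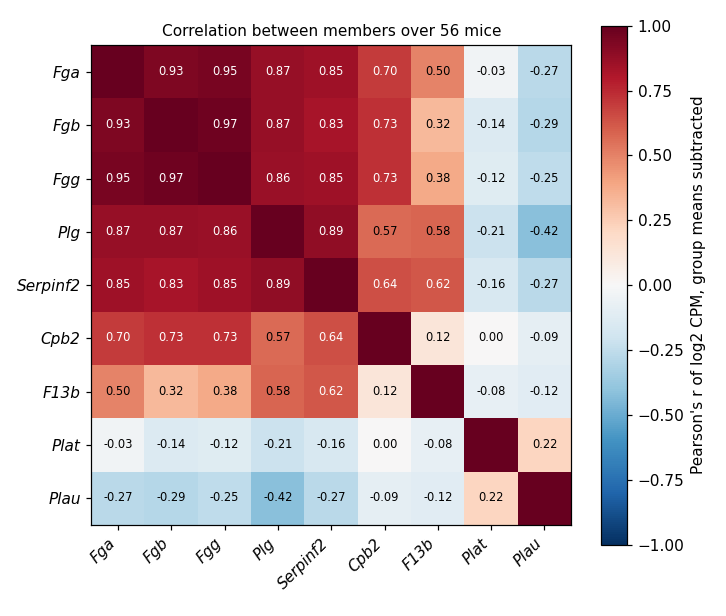
Pearson's r (colour and number) between log2 CPM of each pair of the 9 genes over 56 mice after subtraction of group means. The 3 fibrinogen chains, Plg and Serpinf2 form a block of r from 0.827 to 0.973, and Plau is negative with Plg (−0.420).

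Likeness over the same 56 mice placed each member among other liver genes. After each other, the chains were most like the inter-alpha-trypsin inhibitor heavy chains Itih4 (r = 0.916 with Fga, 0.918 with Fgb) and Itih3 (r = 0.912 with Fgg), which are acute-phase plasma proteins. F13b was most like Pigr (r = 0.826), Serpind1, which encodes heparin cofactor II (0.822), and Apob (0.813). Plg was most like Serpinf2, the complement regulator Cfi (0.873) and Fga. Serpinf2 was most like Plg, Fgg and Cpn2 (0.850). Cpb2 was most like Saa4 (r = 0.836), Orm1 (0.815) and Clu (0.815), with lower rank correlations (rho = 0.592, 0.482 and 0.497). The activators had weaker partners: Slc6a8 (0.680), Plek (0.676) and Arpc2 (0.643) for Plau, and Tagln2 (0.560), Slc3a2 (0.548) and the collagen gene Col1a2 (0.547) for Plat.

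The rest of the system was read from lists of genes chosen by function. Of 7 plasminogen receptor and clearance genes, Lrp1, a receptor that clears plasminogen activators with their inhibitors, was lower in 5 of 6 treated groups, by 0.69 log2 units with imatinib (794 to 1516 CPM in controls, 499 to 952 with imatinib, adjusted p = 6.8e-04), and the exception was ponatinib 3 mg/kg. Anxa2, which binds plasminogen and tissue plasminogen activator on cell surfaces, fell with imatinib (−0.94, adjusted p = 0.031) and ponatinib 10 mg/kg (−0.93, adjusted p = 0.027). S100a10, its partner, rose with nilotinib 30 mg/kg (0.66, adjusted p = 0.0084), and Eno1 rose with ponatinib 10 mg/kg (0.36, adjusted p = 0.042). Plaur, the urokinase receptor, was at 2.95 ± 1.71 CPM in controls (SD, n = 8), 1.65 ± 1.49 under ponatinib 10 mg/kg, 0.848 ± 0.830 under ponatinib 3 mg/kg and 2.07 ± 1.25 under imatinib, and no difference passed. With the share of reads outside genes as a covariate, only Lrp1 with imatinib (4.56% of all genes) was called in this list.

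Among other protease inhibitors, Serping1, the C1 inhibitor, was 796 ± 168 CPM in controls and 616 ± 59.1 with imatinib (SD, n = 8 each, log2 fold change −0.37 ± 0.13, SE, adjusted p = 0.061). DESeq2, limma voom with quality weights and edgeR without the 2 high-Fga mice (10.4% of genes) called it lower with imatinib. Limma voom with quality weights also called Thbd, thrombomodulin, with ponatinib 10 mg/kg, where edgeR did not. Both genes are named here after their values were seen. Among 6 genes of thrombin, cross-linking and fibrin binding, Fn1, fibronectin, fell with nilotinib 10 and 30 mg/kg (−0.64 and −0.74), imatinib (−0.58) and L-NAME (−0.59), with adjusted p of 0.0016 to 0.018. Fgl2, a prothrombinase of macrophages and endothelium, fell with imatinib (−1.52, adjusted p = 5.9e-05) and ponatinib 10 mg/kg (−0.72, adjusted p = 0.045). Fgl1, a fibrinogen-like protein of hepatocytes, rose with ponatinib 10 mg/kg (1.07, adjusted p = 0.017) and L-NAME (0.93, adjusted p = 0.044), and vitronectin (Vtn) with the same 2 groups (0.51 and 0.35, adjusted p = 0.0022 and 0.042). Without the 2 high-Fga mice, Fgl1 and Fgl2 with ponatinib 10 mg/kg were no longer called and Fn1 was called lower with it. With the share of reads outside genes as a covariate, only Fgl2 with imatinib (4.56% of all genes) and Vtn with ponatinib 10 mg/kg (2.58%) were called in this list.

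Of 12 genes that control fibrinogen transcription or interleukin-6 signalling, Stat3 (−0.51, adjusted p = 0.047) and Il6st, the receptor subunit gp130 (−0.41, adjusted p = 0.024), fell with imatinib. Hnf4a, a hepatocyte transcription factor, fell with nilotinib 30 mg/kg (−0.53, adjusted p = 0.0064) and L-NAME (−0.47, adjusted p = 0.0088). Usf1 rose with ponatinib 10 mg/kg (0.60), L-NAME (0.73) and nilotinib 30 mg/kg (0.47), with adjusted p of 7.0e-04 to 0.0495. With the share of reads outside genes as a covariate, only Usf1 with L-NAME (1.8% of all genes) was called in this list.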

How the data were processed

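Poly(A) RNA of liver from 56 mice (8 per group, 7 groups) had been sequenced and the authors deposited raw counts per gene for each mouse, without normalization. The authors aligned reads to GRCm38 with TopHat2 2.0.14 and Bowtie2 2.1.0 and counted them per gene with HTSeq 0.6.1p1 (SAMtools 0.1.18 is also in the submitters' processing notes). The strand setting is not given in the sources used here, so antisense partners of Fgg (Gm30097) and Plg (Slc22a3), and the pseudogene Gm18147 and microRNA Gm44482 within Cpb2, may share reads with them. Symbols were assigned to 44585 of 45513 identifiers with GENCODE vM21.

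The 5 rows per mouse that name no gene were left out of library sizes (reads outside genes made up 7.55 to 16.8% of uniquely aligned reads, and multiply aligned reads were counted on no gene). Counts were tested with edgeR 4.0.16 in R 4.3.3 (filterByExpr, TMM, quasi-likelihood fit of all 56 mice with group as the factor), and genes with Benjamini-Hochberg adjusted p below 0.05 over 14314 genes were called. Standard errors came from the log2 fold change and the F statistic, and 95% intervals are 1.96 standard errors on either side. Correlations used log2 CPM with a prior count of 2, group means subtracted and labels permuted within groups. The 12 comparisons, the lists and the rule for named genes (all members, list genes past the threshold, Plaur, and the 3 most correlated genes of each member) were set with earlier results of these data known, as were the members. Alternatives were DESeq2 1.42.0, limma 3.58.1, DESeq2 size factors, no filter, a covariate, subsets of mice and leaving out each mouse. 1 item of the lists is not reported here. The edgeR code was tested on simulated data. Replicates were compared over 196 pairs within groups, and none agreed within sampling noise. Tf, on the hepatocyte list, matched no symbol. Mice are numbered in the order of their sample numbers.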

Additional observations from a re-analysis of the deposited data

Results flagged for a closer look

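The gap of a mouse to the nearest other was divided by the whole range of its set of 8 mice. Dixon's critical value for this, 0.526, is passed by chance in about 1 in 20 independent, normally distributed sets. The sets here share mice and hold correlated genes on the linear CPM scale, so that rate does not apply to them. Of 63 sets (9 genes in 7 groups), 14 held a mouse above 0.526. Ponatinib 10 mg/kg mouse 2 was the highest in 6 of them: Fga 10916 CPM (next 5606), Fgb 12158 (next 5852), Fgg 9530 (next 5168), Plg 3423 (next 2671), Serpinf2 1209 (next 842) and Cpb2 773 (next 274). Ponatinib 3 mg/kg mouse 2 was highest in Fga at 14475 CPM (next 6895), Fgb at 13344 (next 5984) and Fgg at 9839 (next 5094). Nilotinib 10 mg/kg mouse 3 stood out in Fgg (6177 CPM, next 3315) and F13b (280 CPM, next 191). The remaining 3 were F13b in ponatinib 3 mg/kg mouse 1 (305 CPM, next 239), Plau in ponatinib 10 mg/kg mouse 1 (14.2 CPM, next 4.38) and Cpb2 in control mouse 3 (415 CPM, next 330).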

How the results depend on the processing

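With the share of reads outside genes as a covariate, 0 members were called with imatinib (4.56% of genes), nilotinib 30 mg/kg (0.671%), ponatinib 10 mg/kg (2.58%) and L-NAME (1.8%). In the main fit these shares were 10.3%, 5.77%, 13.1% and 11.8%. At an adjusted p below 0.01 in the main fit, 0 members were called as well. The fold changes of F13b were smaller in the fit with the covariate, while Plau with imatinib was at −1.70 (−1.62 without the covariate), Plat with imatinib at −2.63 (−2.68) and Plat with ponatinib 10 mg/kg at −2.44 (−2.55). The share of reads outside genes differs between the groups, so the cause of the lost calls cannot be told apart from treatment. An unadjusted p below 0.01 gave 2 members for ponatinib 3 mg/kg, 2 for ponatinib against nilotinib at 10 mg/kg and 1 for imatinib against nilotinib 30 mg/kg. Limma voom with quality weights gave 1 member each for nilotinib 10 mg/kg and for ponatinib 10 against 3 mg/kg. DESeq2 gave 1, and leaving out the 2 high-Fga mice gave 1, for ponatinib against nilotinib at 10 mg/kg. With no filter 1 was called with ponatinib 10 mg/kg, and with only the groups compared 1 for imatinib against nilotinib 30 mg/kg. The cause of these shifts was not tested. DESeq2 gave no adjusted p in 11 cases, which include Plat with imatinib and with ponatinib 10 mg/kg and Plau with ponatinib 3 mg/kg.

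Leaving out 1 mouse at a time, the number of members called ranged from 0 to 3 with imatinib, 0 to 3 with ponatinib 10 mg/kg and 0 to 1 for ponatinib against nilotinib at 10 mg/kg, and it stayed at 1 with nilotinib 30 mg/kg and with L-NAME. No called value changed sign. Cpb2 with ponatinib 10 mg/kg, uncalled at 0.06, became called with the other sign, −0.26, without the 2 high-Fga mice. These were left out after their values were seen, and no control was. Of 1067 alternative values of fold changes, 67 had the other sign. At the depths here Plat, with 0 to 213 reads per mouse, could be compared only roughly. No paired analysis was possible because the groups share no replicate numbers in the labels.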
